A study of Rattus norvegicus with 10 samples.

Results

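The genes described here encode the contractile apparatus of smooth, myoepithelial and skeletal muscle cells. The list held 41 genes, 20 of smooth muscle, myoepithelial and vessel-wall (mural) cells and 21 of skeletal muscle. A gene was represented by a probe set annotated to that gene alone, and where there were several, by the one with the highest mean log2 signal over the 10 arrays. This gave 40 of the 41 genes, out of 14217 genes measured, and Mylpf had no probe set annotated to it alone in the annotation used. The choice of probe set used no difference between samples, while the genes were listed with earlier results of these data known.

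The study used Affymetrix Rat Genome 230 2.0 arrays on mammary tumours that 7,12-dimethylbenz(a)anthracene (DMBA), a chemical carcinogen, raised in Sprague-Dawley rats, all female, after 1 oral dose of 100 mg/kg. All tumours were of Bloom-Richardson grade II, and the rats received no further treatment. Each of 5 tumours, 31D3, 32D1, 37I1, 50I1 and 52I4, gave a needle biopsy (0.7 cm by 2.5 mm) at an age of 12 weeks, at a tumour volume of 2 cm3, and its total tumour at 19 weeks. The late sample is called the total tumour in the sample labels, followed here, but a needle sample in the series text. Age, group and, by the labels, way of sampling therefore cannot be told apart. The labels do not say which tumours came from the same rat, so the tests take the tumour, not the animal, as the unit.

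Contraction in all these cells comes from myosin motors pulling on actin filaments. Smooth muscle and the myoepithelial cells that surround mammary ducts and alveoli and squeeze out milk use smooth muscle actins and myosin, switched on by phosphorylation of the myosin light chain, and oxytocin triggers this in the myoepithelium. Skeletal muscle uses its own actin, myosin and troponin genes, switched on by calcium binding to troponin, and is no part of the mammary gland itself. Many genes of both kinds are driven by serum response factor, which binds the CArG box, and the skeletal ones also by MyoD-type factors, which bind the E-box CANNTG.

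No member passed the test between total tumours and biopsies. The 10 smooth muscle filament genes, among them Acta2, Tagln and Lmod1, each had a lower mean signal in the total tumours, against 43.0% of all genes measured. Their median difference was -0.34 on the log2 scale. The differences of Actg2 (-0.06) and Cald1 (-0.07) were the smallest, and that of Actg2 was 0.30 without tumour 37I1. The skeletal muscle actin gene Acta1 had a high signal in both samples of tumour 37I1, as did the smooth muscle genes Actg2 and Oxtr. Acta1 was also high in the biopsy of tumour 50I1. There the skeletal muscle genes Myl1, Tnnt3 and Tnnc2 stood above the other arrays, Tnnt3 and Tnnc2 at low signals of 4.99 and 5.19. A further Tnnt3 probe set was not high there.

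Since the signals of Acta1, Acta2 and Actg2 bear on most of what follows, RefSeq windows from 250 bases before to 50 after the gene start (build GRCr8) were searched for the CArG box, here CC, then 6 bases of which at most 1 was G or C, then GG. This pattern and the E-box CANNTG read the same on both strands, and matches of the 2 patterns may overlap. Of the 40 genes measured, 34 matched the window table, and Myh11, Tagln, Mcam, Lmod1, Myl9 and Tnnt3 were not matched. The windows of both Acta1 (chr19:68784145-68784444, minus strand) and Acta2 (chr1:241172454-241172753, minus strand) held CArG boxes, shown in capitals, 5′ to 3′:
Acta1: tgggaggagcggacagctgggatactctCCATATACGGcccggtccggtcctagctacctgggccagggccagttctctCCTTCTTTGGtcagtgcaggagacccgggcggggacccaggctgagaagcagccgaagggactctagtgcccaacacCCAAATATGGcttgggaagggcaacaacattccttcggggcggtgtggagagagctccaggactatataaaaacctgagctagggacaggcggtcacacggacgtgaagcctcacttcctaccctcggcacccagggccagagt
Acta2: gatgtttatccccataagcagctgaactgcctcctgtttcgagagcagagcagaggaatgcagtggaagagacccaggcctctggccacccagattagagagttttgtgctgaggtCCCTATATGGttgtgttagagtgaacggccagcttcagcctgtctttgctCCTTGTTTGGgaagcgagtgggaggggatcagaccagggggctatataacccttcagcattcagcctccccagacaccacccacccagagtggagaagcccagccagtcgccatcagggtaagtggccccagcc
The matches in the Acta1 window began 222, 171 and 94 bases before the start, and those in the Acta2 window 134 and 84 bases before it. A CArG box was found in 1 of 16 windows of the smooth muscle members (that of Acta2) and in 5 of 20 windows of the skeletal members (Acta1, Myh4, Myh7, Ckm and Atp2a1), against 9.42% of 33469 windows of all genes. With all 6 central bases A or T, the counts were 0 of 16 and 2 of 20, against 1.64%. The E-box was found in 11 of 16 smooth muscle windows and 17 of 20 skeletal windows, against 72.1% of all. A match describes the letters of the window and does not show a bound site, and for genes without one, such as Actg2, it says only that the letters were not in this window.

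Over the whole data set, log2 signals lay between 2.34 and 14.26, and array medians between 5.99 and 6.11. Probe sets whose mean signal was among the lowest 40% (below 5.15) were not tested, and members there are called dim. Of the members, 24 were tested, 17 smooth muscle and 7 skeletal, and 16 were dim, among them Cspg4, Kcnmb1 and Oxtr. The mammary epithelial gene Epcam, a surface protein of gland cells, lay between 12.75 and 13.13 on the 10 arrays, and the basal keratin genes Krt5 and Krt14, which mark myoepithelial cells, between 11.60 and 12.62. Among the skeletal muscle genes, Ckm, Myh2, Myh4 and Myh7 were below the limit of 5.15 on all 10 arrays. Myh1, Tnni2, Eno3 and Atp2a1 were above it on all 10. In such tumour pieces, fewer cells of a type and less RNA per cell cannot be told apart.

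**Figure D1:**
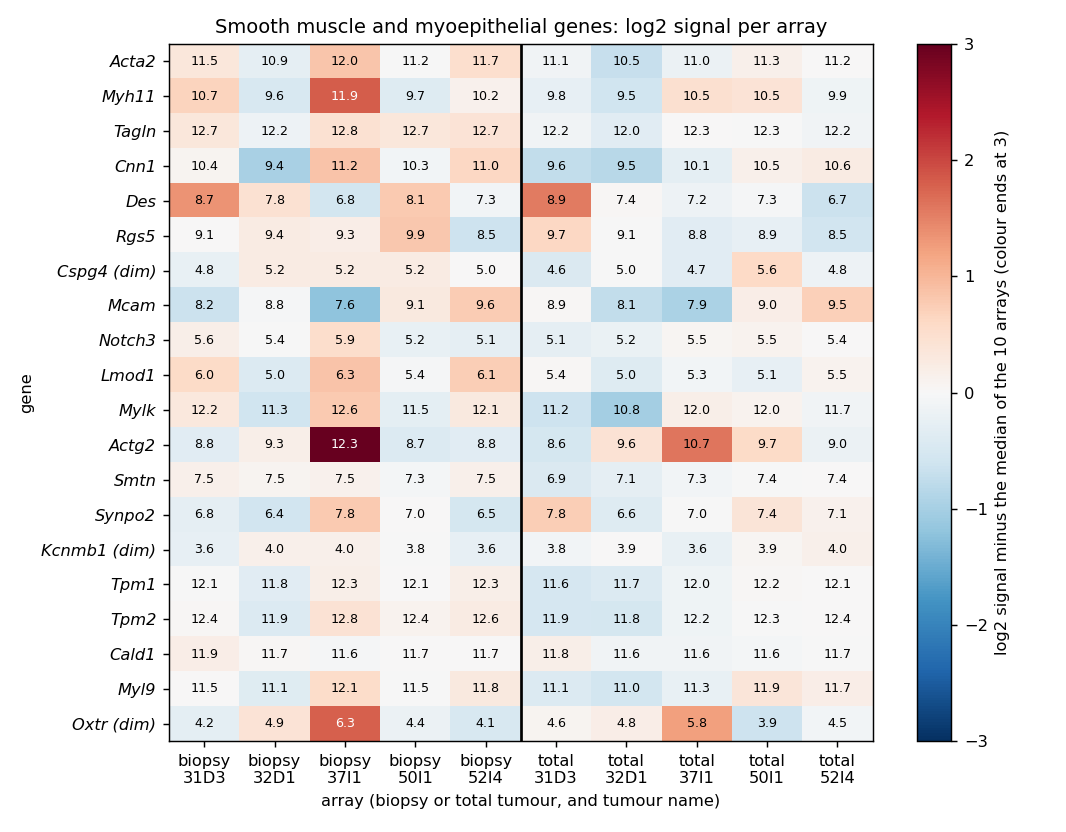
Log2 signal of the 20 smooth muscle, myoepithelial and mural genes (rows) on the 10 arrays (columns, biopsies to the left of the line), printed in each cell, with colour for the difference from the gene's median over the arrays. Actg2 had 12.3 in biopsy 37I1, where 12 of the 20 genes had their highest signal.

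Among the actins and myosins, group values are given below in the order 31D3, 32D1, 37I1, 50I1 and 52I4. Acta2, the alpha actin of smooth muscle and myoepithelial cells, had log2 signals of 11.52, 10.91, 12.02, 11.18 and 11.68 in the biopsies and 11.07, 10.50, 11.02, 11.33 and 11.19 in the total tumours. It was lower in the total tumour in 4 of 5 tumours, with 50I1 the exception, and the groups overlapped. The mean difference was -0.44 (SE 0.165, n = 5 pairs, limma, adjusted p = 0.775). Actg2, the gamma actin of smooth muscle, had 8.82, 9.33, 12.26, 8.74 and 8.81 in the biopsies and 8.62, 9.59, 10.75, 9.72 and 8.96 in the total tumours. Both samples of 37I1 were the highest of their group, and the biopsy of 37I1 was 3.29 above the median of the other 9 arrays. The mean difference was -0.06 (SE 0.332, limma, adjusted p = 0.983), with values of -1.51 in 37I1 and 0.98 in 50I1.

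Myh11 encodes the smooth muscle myosin heavy chain, the motor itself. Its biopsies had 10.71, 9.58, 11.87, 9.67 and 10.18, and its total tumours 9.82, 9.45, 10.54, 10.45 and 9.93. The biopsy of 37I1 was the highest of all arrays, and the groups overlapped (difference -0.36, SE 0.295, limma, adjusted p = 0.884). A further Myh11 probe set was also highest in biopsy 37I1, at 7.81, but its total tumour had 5.28. Myl9, the regulatory light chain whose phosphorylation starts contraction, had 11.51, 11.14, 12.05, 11.48 and 11.79 in the biopsies and 11.09, 10.95, 11.27, 11.85 and 11.69 in the total tumours. Again 50I1 alone was higher in the total tumour (difference over all pairs -0.22, SE 0.170, limma, adjusted p = 0.878).

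Further filament genes encode proteins that bind and stabilise actin. Tagln, transgelin, an actin-bundling protein of smooth muscle, had 12.69, 12.18, 12.80, 12.68 and 12.74 in the biopsies and 12.23, 12.01, 12.34, 12.34 and 12.24 in the total tumours. It was lower in 5 of 5 pairs, with differences from -0.17 to -0.50, and the groups overlapped through biopsy 32D1, which lay below the other biopsies. The difference of -0.38 had the smallest adjusted p of the members (SE 0.0930, limma, adjusted p = 0.642). Tpm2, beta tropomyosin, which lies along the actin filament, had 12.38, 11.94, 12.78, 12.45 and 12.58 in the biopsies and 11.85, 11.82, 12.21, 12.34 and 12.35 in the total tumours. This was lower in 5 of 5 pairs as well, with overlapping groups (difference -0.31, SE 0.112, limma, adjusted p = 0.751). Lmod1, a leiomodin that seeds actin filaments in smooth muscle, had 5.97, 4.99, 6.25, 5.37 and 6.14 in the biopsies and 5.43, 5.03, 5.31, 5.15 and 5.51 in the total tumours. It was lower in 4 of 5 pairs, and tumour 32D1 had like values in both samples (difference -0.46, SE 0.154, limma, adjusted p = 0.704). Lmod1 was under the limit of 5.15 on 3 arrays.

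Cnn1, calponin, which restrains the myosin motor, had 10.44, 9.40, 11.21, 10.28 and 10.98 in the biopsies and 9.62, 9.53, 10.06, 10.52 and 10.60 in the total tumours. It was lower in 31D3, 37I1 and 52I4 and higher in 32D1 and 50I1 (difference -0.40, SE 0.226, limma, adjusted p = 0.846). Tpm1, alpha tropomyosin, differed by -0.20 (SE 0.108, limma, adjusted p = 0.846), and the 5 tested of its 7 probe sets ran from -0.84 to 0.03. Cald1, caldesmon, an actin-binding brake on the motor, was lower in 5 of 5 pairs (difference -0.07, SE 0.0821). A further Cald1 probe set differed by -0.49, so probe sets of this gene gave unlike sizes.

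Of the genes that switch on contraction, Mylk, the kinase that phosphorylates the myosin light chain, had 12.16, 11.26, 12.63, 11.55 and 12.13 in the biopsies and 11.23, 10.84, 12.03, 11.96 and 11.73 in the total tumours. It was lower in all pairs except 50I1, and biopsy 37I1 was the highest array (difference -0.38, SE 0.191, limma, adjusted p = 0.846). Oxtr, the oxytocin receptor, was dim and had 4.25, 4.94, 6.34, 4.37 and 4.06 in the biopsies and 4.63, 4.75, 5.77, 3.93 and 4.46 in the total tumours. The 2 samples of 37I1 were the only arrays above 5.15, 1.89 and 1.32 above the median of the others. Kcnmb1, a subunit of the smooth muscle potassium channel, was dim on all 10 arrays, between 3.60 and 4.01.

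The linker genes differed among themselves. Des, desmin, the intermediate filament of muscle cells of all kinds, had 8.73, 7.82, 6.81, 8.15 and 7.28 in the biopsies and 8.93, 7.42, 7.22, 7.33 and 6.73 in the total tumours. Both samples of 31D3 were highest, and biopsy 37I1, where most filament genes had their highest signal, was the lowest of the biopsies (difference -0.23, SE 0.199, limma, adjusted p = 0.890). Synpo2, a linker of actin to the Z disc and dense bodies, had 6.75, 6.43, 7.80, 7.04 and 6.50 in the biopsies and 7.76, 6.63, 6.99, 7.41 and 7.15 in the total tumours. Biopsy 37I1 was the highest array, and the total tumour was higher in all pairs except 37I1 (difference 0.28, SE 0.253, limma, adjusted p = 0.896), and its other 3 probe sets also had means above 0. Smtn, smoothelin, a protein of contractile smooth muscle, differed by -0.25 (SE 0.117, limma, adjusted p = 0.842), and was lower in the total tumour in all pairs except 50I1, as were Acta2, Mylk and Myl9.

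The mural cell genes split. Mcam, an adhesion molecule of vessel-wall and endothelial cells, had 8.17, 8.78, 7.61, 9.11 and 9.57 in the biopsies and 8.86, 8.07, 7.86, 9.03 and 9.53 in the total tumours. The samples of 37I1 were the lowest, at -1.25 relative to the median of the other 9 arrays in the biopsy, and those of 52I4 the highest (difference 0.02, SE 0.197, limma, adjusted p = 0.991). Rgs5, a signalling regulator of pericytes, had 9.12, 9.35, 9.31, 9.90 and 8.48 in the biopsies and 9.73, 9.09, 8.76, 8.87 and 8.53 in the total tumours. Here 50I1 was highest among the biopsies and 31D3 among the total tumours (difference -0.24, SE 0.233, limma, adjusted p = 0.907). Notch3, a receptor of vessel smooth muscle, differed by -0.10 (SE 0.154), and Cspg4, the pericyte proteoglycan NG2, was dim, between 4.55 and 5.58.

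Counted together, 17 of the 20 smooth muscle members had a lower mean in the total tumours, with a median difference of -0.23, against 43.0% of all genes measured and a median of 0.03. The filament genes gave 10 of 10 (Actg2 was at 0.30 without tumour 37I1), the linkers 2 of 3, the signalling genes 2 of 3 and the mural genes 3 of 4. Among tested genes, 15 of the 17 smooth muscle members were lower (median -0.24), against 5272 of all 10793 (median 0.0039). Over all probe sets, 0 of 18625 (0%) passed an adjusted p of 0.05 in limma, the lowest adjusted p being 0.642, and 1133 had an unadjusted p under 0.05. The paired test named in the series text gave 0 after adjustment and 1013 before it. Of the 17 smooth muscle members tested, 4 had an unadjusted p under 0.05 and were lower (Acta2, Tagln, Lmod1 and Tpm2), against 2.56% of genes tested, and 0 were higher, against 1.61%. Tagln, Tpm2 and Cald1 were lower in 5 of 5 pairs, as were 3.42% of genes tested.

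**Figure D2:**
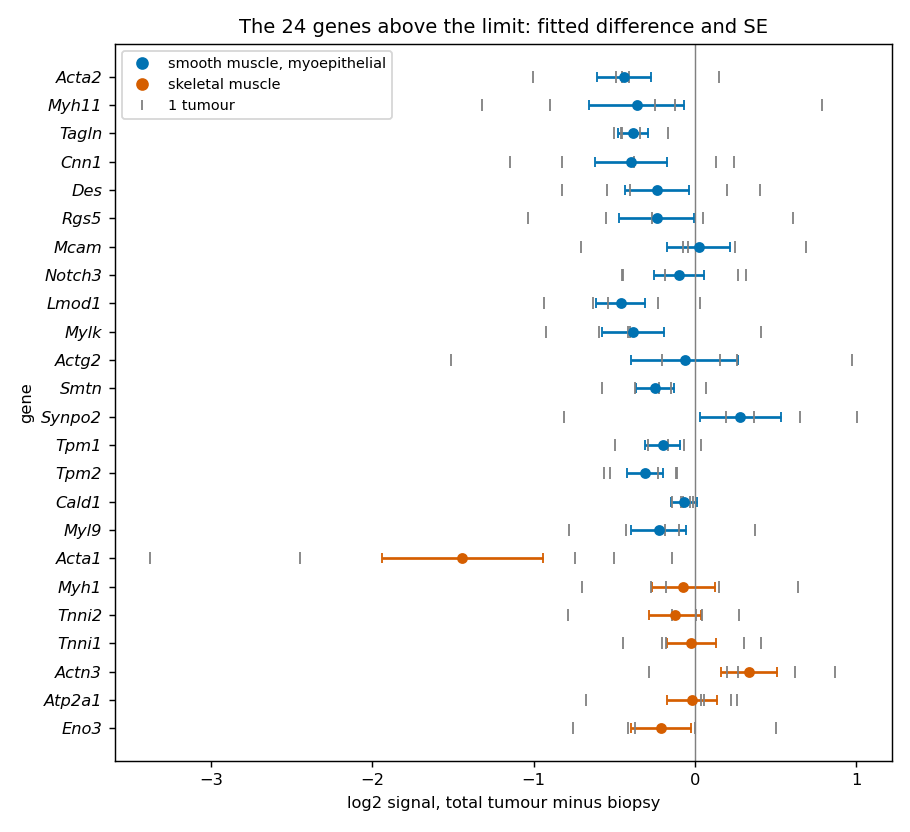
Difference in log2 signal, total tumour minus biopsy, for the 24 genes tested: points are limma estimates, bars their SE, and short ticks the 5 tumours. Filament genes lie to the left of 0, and the ticks of Acta1 reach -3.38.

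Which samples held the high signals was not spread evenly. Biopsy 37I1 had the highest signal of the 10 arrays in 12 of the 20 smooth muscle members, 8 of them filament genes, against 12.7% of all genes measured. Total tumour 32D1 had the lowest in 6 of 20, against 7.34%. By a measure chosen after the values were seen, at least 1 log2 unit above the median of the other 9 arrays, biopsy 37I1 held Myh11, Actg2 and Oxtr, against 1.67% of all genes measured, and total tumour 37I1 held Actg2 and Oxtr, against 2.55%. The 5 tumours differed at an unadjusted p under 0.05 in limma's moderated F test in 7 of 17 smooth muscle members tested (Actg2, Des, Mcam, Mylk, Cnn1, Tpm2 and Lmod1), against 10.1% of genes tested. None of them passed after adjustment, which 0.0371% of genes tested did, and the smallest adjusted p was 0.270, of Des.

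Skeletal muscle genes showed a different picture, set by a few arrays. Acta1, the actin of skeletal muscle fibres, had 4.66, 4.91, 11.93, 8.13 and 4.18 in the biopsies and 4.16, 4.17, 9.48, 4.76 and 4.04 in the total tumours. The 7 arrays other than biopsies 37I1 and 50I1 and total tumour 37I1 were under the limit of 5.15. It was lower in the total tumour in 5 of 5 pairs, with differences of -3.38 in 50I1, -2.45 in 37I1 and -0.14 to -0.75 in the other 3, whose values all lay under the limit. The mean difference was -1.44 (SE 0.499, limma, adjusted p = 0.723), -1.19 without 37I1 and -0.96 without 50I1, and without 37I1 the probe set was dim. Between tumours its limma F test gave an adjusted p of 0.159, the smallest of the members. Acta1 had 1 probe set annotated to it alone, so no further probe set bears on these values.

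**Figure D3:**
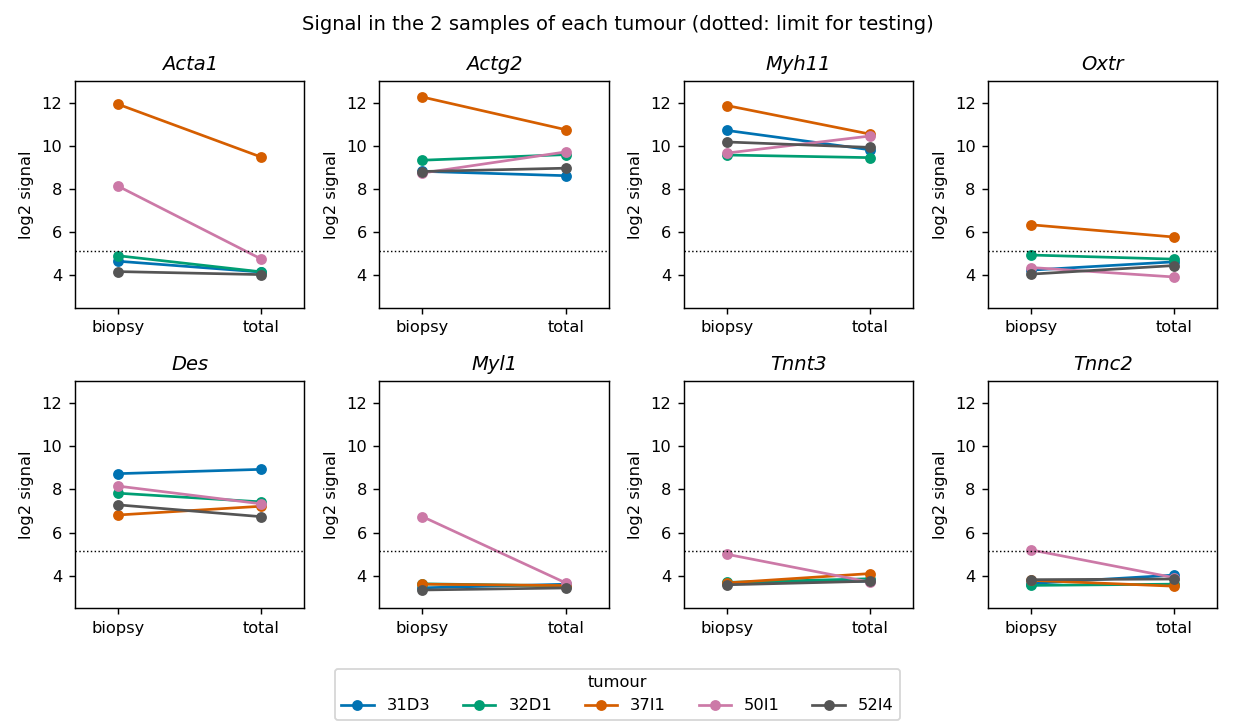
Log2 signal in the biopsy and the total tumour, 1 line per tumour, for 8 genes, with the limit for testing dotted. Acta1, Actg2 and Oxtr were high in both samples of 37I1. Myl1, Tnnt3 and Tnnc2 were highest in biopsy 50I1, Tnnt3 still under that limit.

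Of the other thin filament genes, the fast troponins had their highest signal in biopsy 50I1. Tnnc2, the fast troponin that binds calcium, had 3.64, 3.55, 3.79, 5.19 and 3.82 in the biopsies and 4.03, 3.61, 3.51, 3.91 and 3.85 in the total tumours. Tnnt3, the fast troponin that binds tropomyosin, had 3.68, 3.69, 3.67, 4.99 and 3.58 in the biopsies and 3.75, 3.86, 4.10, 3.70 and 3.75 in the total tumours. Both genes had 1 high array, biopsy 50I1, and the difference within 50I1 was -1.29 for each. A further, dim Tnnt3 probe set did not go with this: it had 3.17 in biopsy 50I1, its lowest array, and 3.49 in total tumour 50I1. Tnni2, the fast inhibitory troponin, was also highest in biopsy 50I1, with 6.69, 6.85, 6.59, 7.31 and 6.36 in the biopsies and 6.96, 6.71, 6.63, 6.52 and 6.37 in the total tumours. Its groups overlapped (difference -0.12, SE 0.162). The slow forms Tnnt1 and Tnni1 lay within 3.42 to 3.89 and 4.94 to 5.68, Tnnt1 highest in biopsy 50I1 and Tnni1 highest in biopsy 37I1, with 5.63 in biopsy 50I1.

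In the thick filament, Myl1, the light chain of fast fibres, had 3.44, 3.62, 3.61, 6.74 and 3.34 in the biopsies and 3.61, 3.53, 3.54, 3.67 and 3.43 in the total tumours. Biopsy 50I1 stood 3.19 above the median of the other 9 arrays. Of the fibre-type myosin heavy chains, Myh2 and Myh7 did not go with Myl1: Myh2 lay between 3.09 and 3.42 and Myh7 between 3.19 and 3.58 over all arrays. Myh4, that of the fastest fibres, was highest in biopsy 50I1, at 3.44, against 2.83 to 3.17 elsewhere, all far under the limit. Myh1, a further fast heavy chain, had 10.84, 10.18, 10.63, 10.55 and 10.30 in the biopsies and 10.99, 10.82, 9.93, 10.37 and 10.03 in the total tumours. No array stood apart for Myh1 (difference -0.07, SE 0.194, limma, adjusted p = 0.970), and its signal did not follow those of Acta1 or Myl1. The Myh1 probe set was bright on all arrays while those of the other heavy chains were dim, and whether it measures Myh1 alone was not tested.

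**Figure D4:**
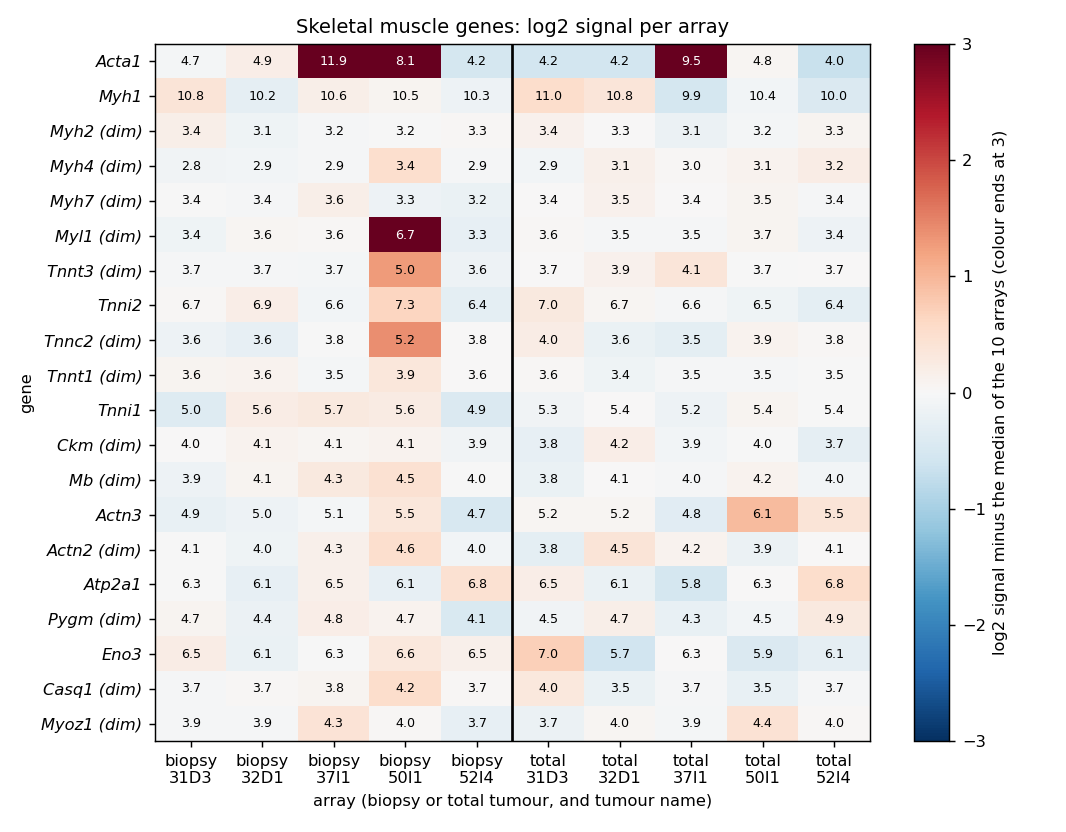
Log2 signal of the 20 skeletal muscle genes (rows) on the 10 arrays (columns, biopsies to the left of the line), printed in each cell, with colour for the difference from the gene's median over the arrays. Acta1 was high on 3 arrays, and Myl1, Tnnt3 and Tnnc2 were highest in biopsy 50I1.

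Genes of energy supply and calcium handling were mostly dim. Ckm, the creatine kinase of muscle, had 4.01, 4.12, 4.06, 4.12 and 3.90 in the biopsies and 3.76, 4.20, 3.93, 4.01 and 3.74 in the total tumours, with no array standing out. Mb, myoglobin, was highest in biopsy 50I1 at 4.49, against 3.83 to 4.32 elsewhere, and Casq1, the calcium store protein, was highest there too, at 4.23, against 3.49 to 4.02. Eno3, the muscle enolase, differed by -0.21 (SE 0.186), and Atp2a1, the calcium pump of fast fibres, by -0.02 (SE 0.156). Actn3, the alpha-actinin of fast fibre Z discs, had 4.95, 5.01, 5.12, 5.50 and 4.67 in the biopsies and 5.22, 5.21, 4.83, 6.11 and 5.54 in the total tumours. Unlike the troponins, it was highest in total tumour 50I1 (difference 0.33, SE 0.174, limma, adjusted p = 0.846). Actn2, Pygm and Myoz1 were dim on all arrays.

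Biopsy 50I1 had the highest signal of the 10 arrays in 9 of the 20 skeletal members measured, against 5.27% of all genes measured, and biopsy 52I4 the lowest in 8, against 13.4%. At least 1 log2 unit above the median of the other 9 arrays were Acta1, Myl1, Tnnt3 and Tnnc2 in biopsy 50I1, against 1.88% of all genes measured, and Acta1 alone in each sample of 37I1. The mean was lower in the total tumours in 15 of 20 skeletal members, against the 43.0% of all genes given above, with a median difference of -0.09. Of the 7 tested, Acta1 alone had an unadjusted p under 0.05 in limma between the groups, being lower, against 2.56% of genes tested. It was also the only one between tumours, against 10.1%. Acta1 was under the limit on 7 arrays and passed the filter through its high arrays. Its tests therefore draw on the same values that let it be tested. The other 13 measured members were dim, so their counts describe signals near the lower end of the range.

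The contrast of the smooth with the skeletal members was taken within each tumour as the mean difference, total tumour minus biopsy, over 20 genes of each kind. In 31D3, 32D1 and 52I4 the smooth members were lower by means of -0.20, -0.18 and -0.11, and the skeletal members had 0.06, 0.03 and 0.11. In 37I1 both were lower, at -0.58 and -0.31, or -0.20 for the skeletal members without Acta1. In 50I1 they went apart, at 0.05 and -0.61, and the skeletal value without Acta1 was -0.47. The number of smooth members lower in the total tumour was 14, 16, 18, 8 and 14 of 20 in the 5 tumours, and that of skeletal members 8, 8, 15, 16 and 7 of 20. Smooth minus skeletal came to -0.26, -0.21, -0.27, 0.66 and -0.21, with a mean of -0.06 (SD 0.404, n = 5 tumours), so its sign was negative in 4 tumours and the mean was smaller than the spread between them. Without 50I1 the mean was -0.24. Over tested members alone, 17 smooth and 7 skeletal, the value in 37I1 turned to 0.05, which left 3 of 5 tumours negative.

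**Figure D5:**
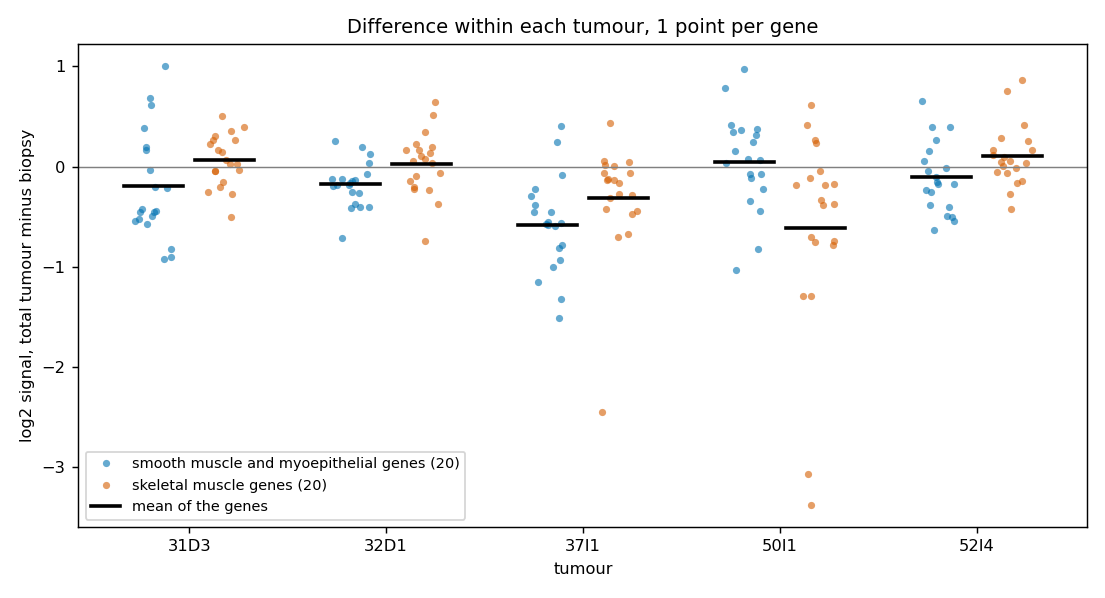
Difference in log2 signal, total tumour minus biopsy, within each of the 5 tumours, 1 point per gene, with bars for the mean of 20 smooth muscle (blue) and 20 skeletal (orange) genes. Skeletal genes reached -3.38 in 50I1, and smooth muscle genes had their lowest mean, -0.58, in 37I1.

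By array, after subtraction of each gene's own mean, the smooth members were highest in biopsy 37I1, at 0.56, and lowest in total tumour 32D1, at -0.36. Total tumour 37I1, which had the second highest Actg2 and Acta1, was at -0.02. The skeletal members were highest in biopsy 50I1, at 0.54, or 0.46 without Acta1. In biopsy 37I1 they were at 0.34, but at 0.05 without Acta1, so that array's value rested on that gene. The signals of 14 of 20 smooth and 14 of 20 skeletal members spread more (SD) among the biopsies than among the total tumours, against 58.7% of all genes measured. Of the members tested these were 12 of 17 smooth and 3 of 7 skeletal, against 59.2% of genes tested, so 11 of the 14 skeletal genes were dim.

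Further genes of the same apparatus were read from lists of related genes. Their counts stand beside 43.0% of all genes measured with a lower mean in the total tumours (median 0.03). Of 20 measured regulators of smooth muscle, such as Rhoa, the GTPase that keeps the light chain phosphorylated, 8 had lower and 12 higher means in the total tumours (median 0.03), and 0 of the 16 tested passed in limma in either direction. Rhoa itself differed by 0.08 and Ppp1r12a, the targeting subunit of myosin phosphatase, by -0.10. Of 22 other actin-binding and adhesion genes, 13 were lower and 9 higher (median -0.06), and 0 of the 21 tested passed. Tpm4, a non-muscle tropomyosin, differed by 0.08, and Cnn3, a broadly made calponin, by -0.48. In biopsy 37I1, 4 of the 22 actin-binding genes had their highest signal of the 10 arrays and 5 their lowest. The list median there, 8.89, was the lowest of the arrays. Of the 20 regulators, 6 were highest and 1 lowest there. Of all genes measured, 12.7% were highest in that biopsy, and the share lowest in it is not given. Pdlim3, Nexn and Ppp1r14a are named from these lists after their values were seen. Pdlim3, a Z-disc and dense-body adaptor, had 8.06 in biopsy and 6.87 in total tumour 37I1, against 5.09 to 6.11 on the other 8 arrays. Nexn, an actin-binding protein of striated and smooth muscle, had 7.43 and 6.73 there, against 5.87 to 6.52. Ppp1r14a, the inhibitor of myosin phosphatase, had 8.16 in biopsy 37I1, against 6.14 to 7.12 elsewhere.

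Of 27 other skeletal muscle genes, 25 were dim, and 0 of the 2 tested passed. Of the 27, 12 were lower and 15 higher (median 0.02), against 43.0% of all genes measured lower. Biopsy 50I1 was the highest array in 10 of 27, against 5.27% of all genes measured, and biopsy 52I4 the lowest in 12, against 13.4%. Neb, nebulin, the ruler of the thin filament, had 4.95 in biopsy 50I1, against 3.15 to 4.13 elsewhere. Cox6a2, a respiratory chain subunit of striated muscle, had 5.63 there, against 4.04 to 4.58. The 2 brightest genes of that list, Mybpc2 and Mylk2, differed by 0.35 and 0.19. Of 9 satellite cell and myoblast genes, 1 was lower and 8 higher (median 0.07), against the same 43.0% lower. Des, the only gene of them tested, did not pass.

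Markers of other cell types also stood apart on the arrays named above. The median log2 signal of 12 fibroblast and matrix genes was 8.23 in biopsy 37I1, 12.29 in biopsy 50I1 and 10.48 to 12.25 on the other 8 arrays. Biopsy 50I1 was the highest array in 7 of these 12 genes, against 5.27% of all genes measured. Biopsy 37I1 was the lowest in 11 of them, and the share of all genes lowest there is not given. Col3a1, a fibrillar collagen, had 9.61 in biopsy 37I1 and 13.27 in biopsy 50I1, and Postn, a matrix protein, 10.35 and 13.21. The 9 adipocyte genes had a median of 4.17 in biopsy 37I1 and 7.43 in total tumour 37I1. The median of the 11 non-contractile myoepithelial genes did not follow Acta2 and Actg2. It was 9.59 in biopsy 37I1 and 9.55 to 10.44 on the other 9 arrays. Of the 11, 1 was at least 1 log2 unit above the median of the other 9 arrays there, against 1.67% of all genes measured. Krt5 had 12.01 there, and Krt14 was at its lowest, at 11.60. The part of these cells in the Acta1, Actg2 and Myl1 values was not tested.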

How the data were processed

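Per the submitters' processing notes, the authors made the deposited values, log2 signals of probe sets, with RMA (Robust Multichip Average). Its version and chip definition are not stated there. RMA brings all arrays to 1 distribution, so a shift shared by most transcripts is removed. The value table had 31099 rows, 57 of them controls, which were dropped. The platform annotation paired 20826 of the remaining 31042 with a single gene, 436 with several genes, which were not named, and 9780 with none. For the late sample, series text (needle) and sample labels (total tumour) disagree, and the latter were used.

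Groups and pairs came from the tumour names in the labels. Deviations from the group means correlated above 0.1 in 4 of 5 pairs (r from -0.21, in 50I1, to 0.34). Between samples of different tumours r ran from -0.51 to 0.36, the latter for biopsy 50I1 with total tumour 31D3. These correlations therefore do not settle the pairing. Probe sets outside the dimmest 40% (18625, for 10793 genes) were fitted in R 4.3.3 with limma 3.58.1 (lmFit, eBayes), with tumour as a block, and a moderated F test compared tumours. Benjamini-Hochberg adjustment ran over all probe sets tested, at a threshold of 0.05, and the steps were tested on simulated data. Members and lists were chosen with earlier results of these data known. From most further lists the 2 genes with the highest mean were named, and others after their values were seen. The 2 such genes of the adipocyte, endothelial and nerve lists are not named. Neither are Krt19 of the epithelial list and Chrng of the satellite cell list. The remaining lists, of cardiac, endothelial, epithelial, skin and nerve genes, are given among the other observations. Figures were drawn with matplotlib 3.10.9. The number of arrays limits the precision.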

Additional observations from a re-analysis of the deposited data

Results flagged for a closer look

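In each group of 5 samples, a highest or lowest value was singled out where its gap to the nearest sample exceeded 0.71 of the group's range (Dixon). This held for 10 of 80 groups looked at, where chance alone gives about 5%. In biopsy 50I1, Myl1 had 6.74 (nearest biopsy 3.62), Tnnc2 5.19 (3.82), Tnnt3 4.99 (3.69), Casq1 4.23 (3.79) and Myh4 3.44 (2.91), all above the other biopsies, and Smtn had 7.30, below the nearest at 7.46. Actg2 had 12.26 in biopsy 37I1, with the nearest at 9.33, and Acta1 had 9.48 in total tumour 37I1, with the nearest at 4.76. Tagln had 12.18 in biopsy 32D1, below the nearest at 12.68. Cald1 had 11.87 in biopsy 31D3, above the nearest at 11.71. The 5 skeletal muscle values singled out in biopsy 50I1 come from 1 array. Their cause was not tested.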

How the results depend on the processing

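Under other filters, without the replicate block, with the paired test named in the series text, an intensity trend, array weights, 2 further normalizations and each tumour left out, 0 probe sets passed between the groups. The lowest adjusted p of a member was 0.460. Probe sets with an unadjusted p under 0.05 numbered 2128 with no filter, 581 with the dimmest 60% out, and 572 to 1550 with a tumour left out (1133 with none left out). Probe sets that differed between tumours numbered 16, or 26 with no filter, 8 with the dimmest 60% out and 0 to 3 with a tumour left out. The median of the smooth members ran from -0.32 to -0.14 and that of the skeletal members from -0.13 to 0.01 with a tumour left out. Smooth minus skeletal ran from -0.24 to -0.0044, and was -0.13 without Acta1, chosen after seeing the data, and -0.0022 over members that were tested.

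Of 24 members tested, 7 changed sign in some alternative, all with small differences. Array weights gave Mcam -0.040, Notch3 0.022, Actg2 0.12, Tnni1 0.039 and Atp2a1 0.032. Median centring gave Tnni1 0.0091 and Atp2a1 0.014, a second quantile normalization Atp2a1 0.016, and the mean of all probe sets Mcam -0.0049. With a tumour left out, Mcam ran from -0.14 to 0.21, Actg2 from -0.32 to 0.30, Myh1 from -0.25 to 0.085, Tnni1 from -0.13 to 0.082, Tnni2 from -0.22 to 0.044 and Atp2a1 from -0.089 to 0.15. The cause was not tested.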

Other observations

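Cardiac muscle genes were read as a further kind of striated muscle. Of 8 measured, 1 was lower and 7 higher in the total tumours (median difference 0.18), against 43.0% of all genes measured lower. Of the cardiac genes, 0 passed in limma. Tnnt2, the cardiac form of troponin T, had 8.53 in total tumour 50I1 and 4.82 to 7.08 on the other 9 arrays. Nppb, a natriuretic peptide made by stretched heart muscle and named after its values were seen, had 7.05 in the same sample and 4.49 to 5.56 elsewhere. No other cardiac gene measured was at least 1 log2 unit above the median of the other 9 arrays in total tumour 50I1. This is the late sample of the tumour whose biopsy had the highest Myl1, Tnnt3 and Tnnc2 signals. The skeletal genes were not high in this late sample, apart from Actn3 at 6.11. Gja5, a gap junction gene of vessels and heart, differed by 0.20.

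Among other cell types, 8 of 10 mammary epithelial genes were higher in the total tumours (median 0.14), as were 7 of 10 endothelial genes (0.18), 12 of 12 fibroblast and matrix genes (0.54), 8 of 9 adipocyte genes (0.36), 9 of 10 skin genes (0.18), 4 of 8 nerve genes (0.01) and 5 of 11 non-contractile myoepithelial genes (-0.09). For comparison, 43.0% of all genes measured had a lower mean in the total tumours, with a median difference of 0.03. None of the genes of these lists passed in limma. Of the 2 brightest skin genes, Dmkn was higher in 5 of 5 pairs (difference 1.42, SE 0.252, limma, adjusted p = 0.642), and Lgals7 differed by -0.01. Lists overlap in part, since Des is counted among both smooth muscle and satellite cell genes.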
